A study of Mus musculus with 8 samples.

Results

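The genes described here are 32 genes of the endoplasmic reticulum (ER), the compartment in which secreted and membrane proteins fold, and of the stress responses that watch over it. They were chosen by symbol, and all 32 were found among the 53379 genes listed for each library. Their roles are protein folding, import into the ER, removal of misfolded proteins, stress sensing and the integrated stress response. RNA was sequenced from intestinal epithelial cells shaken free from the distal colon of C57BL/6 mice. The KO mice (RORaΔIEC) lack the nuclear receptor gene Rora in the intestinal epithelium, and the WT mice (RORaf/f) carry the floxed gene without that deletion. Mice of each genotype drank dextran sulfate sodium (DSS), which damages the epithelium of the colon and sets off colitis, or were left untreated. DSS was given at 2% (w/v) in the drinking water for 5 days, and plain water followed for 3 days. The 4 groups, DSS-treated KO, DSS-treated WT, untreated KO and untreated WT, had 2 libraries each. The labels name neither the promoter that drove the Cre recombinase nor the age or sex of the mice. They do not say whether the 2 libraries of a group came from separate animals, so the p-values rest on the spread between samples alone, and that spread may be technical.

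Newly made proteins enter the ER through the Sec61 channel, are folded by chaperones, and are degraded in the cytosol when folding fails. Unfolded protein in the ER activates 3 kinds of sensor. IRE1 splices the mRNA of the transcription factor XBP1, ATF6 is cut to release a transcription factor, and PERK phosphorylates the translation factor eIF2α, which favours translation of ATF4. XBP1 and ATF6 raise chaperone and degradation genes. ATF4 raises genes of amino acid supply and also the pro-apoptotic factor CHOP, and other kinases reach it without ER stress, which gives the wider path its name, the integrated stress response. In the colon the heaviest users of the ER are goblet cells, which secrete mucin.

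The promoters below are shown because they carry the DNA elements through which XBP1 and ATF6 are known to act, in genes whose RNA is described in what follows. Each line gives the 250 bases before the annotated start on the strand of the gene, from RefSeq promoters of build GRCm38.p6. Capitals mark the matched letters. The ER stress element (ERSE) was searched as CCAAT, 9 free bases and CCACG, its second form (ERSE-II) as ATTGG, 1 free base and CCACG, and the core of the unfolded protein response element (UPRE) as TGACGTG. Both strands were searched, so that the ERSE also appears as CGTGG, 9 bases and ATTGG. Hspa5 (chr2:34771840-34772089, plus strand) held 1 ERSE and 1 UPRE core, and Hsp90b1 (chr10:86705445-86705694, minus strand) held 2 ERSEs in opposite orientations. Calr (chr8:84846932-84847181, minus strand), Creld2 (chr15:88819396-88819645, plus strand) and Syvn1 (chr19:6046326-6046575, plus strand) held 1 ERSE each. Herpud1 (chr8:94386179-94386428, plus strand) held 1 ERSE-II.
Hspa5: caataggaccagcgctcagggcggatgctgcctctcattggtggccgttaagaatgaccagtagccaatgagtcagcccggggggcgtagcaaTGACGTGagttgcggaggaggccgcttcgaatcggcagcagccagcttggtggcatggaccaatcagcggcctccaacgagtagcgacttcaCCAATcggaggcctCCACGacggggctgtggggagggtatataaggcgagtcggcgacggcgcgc
Hsp90b1: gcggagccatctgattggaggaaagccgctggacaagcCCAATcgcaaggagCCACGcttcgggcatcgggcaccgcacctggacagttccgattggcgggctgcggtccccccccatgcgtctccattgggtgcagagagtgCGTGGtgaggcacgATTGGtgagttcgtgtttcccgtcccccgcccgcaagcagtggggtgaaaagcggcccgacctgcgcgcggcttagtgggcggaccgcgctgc
Calr: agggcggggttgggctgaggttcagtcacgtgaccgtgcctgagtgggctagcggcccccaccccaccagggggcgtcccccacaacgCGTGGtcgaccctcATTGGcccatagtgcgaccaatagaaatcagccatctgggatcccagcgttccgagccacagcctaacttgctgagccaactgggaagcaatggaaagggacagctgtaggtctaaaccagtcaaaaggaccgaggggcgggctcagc
Creld2: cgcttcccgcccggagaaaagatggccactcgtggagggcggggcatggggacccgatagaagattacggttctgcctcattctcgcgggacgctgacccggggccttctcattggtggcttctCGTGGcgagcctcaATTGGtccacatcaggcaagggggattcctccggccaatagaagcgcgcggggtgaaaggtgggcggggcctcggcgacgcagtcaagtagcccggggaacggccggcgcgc
Syvn1: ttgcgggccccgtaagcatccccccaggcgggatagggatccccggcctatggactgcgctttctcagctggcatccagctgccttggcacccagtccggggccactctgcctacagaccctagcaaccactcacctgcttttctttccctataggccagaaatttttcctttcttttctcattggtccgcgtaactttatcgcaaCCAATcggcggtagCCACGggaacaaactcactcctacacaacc
Herpud1: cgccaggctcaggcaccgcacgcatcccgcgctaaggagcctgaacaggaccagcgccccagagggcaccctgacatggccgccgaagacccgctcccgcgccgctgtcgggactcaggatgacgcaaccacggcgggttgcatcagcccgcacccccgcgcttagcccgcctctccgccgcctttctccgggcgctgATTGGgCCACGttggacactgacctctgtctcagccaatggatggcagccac

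RefSeq promoters, which run from 250 bases before to 50 bases after the start, were given for 28 of the 32 genes. An ERSE was found in 8 of the 28, or 28.6%, and in 37 of 27025 genes in the whole table, or 0.137%. The other ERSE genes were Canx, Dnajc3 and Pdia6. An ERSE-II was found in 2 of the 28 (7.14%), Herpud1 and Dnajb11, and in 0.0444% of all genes. The UPRE core was found in 1 of the 28 (3.57%) and in 2.22% of all genes. The ERSE matches began between 44 and 212 bases before the start. The 32 genes were chosen as ER folding and stress genes, the kind that XBP1 and ATF6 raise through such elements. The larger ERSE share was thus foreseeable from that choice and supports no conclusion. These matches are letters in a window and not measured binding.

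**Figure D1:**
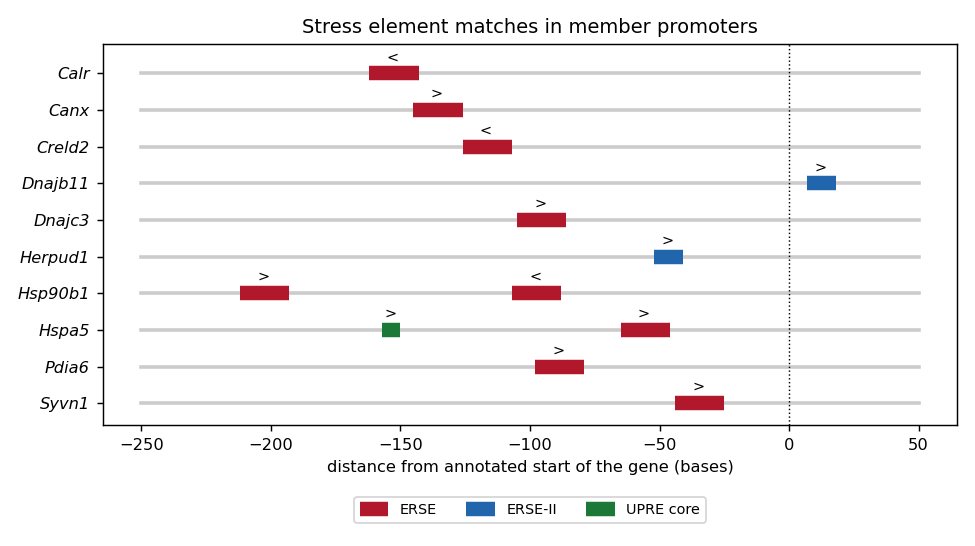
Position of stress element matches in the promoters of 10 genes, as distance in bases from the annotated start (dotted line). Grey lines are the searched windows, coloured bars the matches, and > or < their orientation relative to the gene. The Dnajb11 element lies after the start, and the other 11 matches lie before it.

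Total expected counts were between 15971642 and 20418466 per library, and 14991 genes passed the filter on low counts. Mitochondrial genes took 5.29% and 4.91% of counts in DSS-treated KO, 7.45% and 7.504% in DSS-treated WT, and between 7.23% and 8.05% in the untreated libraries. Rora itself had 8 and 5 counts in DSS-treated KO, 16 and 14 in DSS-treated WT, 4 and 3 counts in untreated KO, and 12 and 6 counts in untreated WT. KO over WT gave a log2 fold change of -1.24 ± 0.45 (SE, edgeR adjusted p = 0.0425) with DSS and -1.10 ± 0.58 (adjusted p = 0.238) without, so the deletion was checked at low counts only. All 10 defining epithelial markers were detected, with a summed level between 14760 and 17686 CPM (counts scaled to library depth, with TMM factors).

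Of the 32 genes, 31 passed the filter. The eIF2α path gene Trib3 did not, with 8 and 6 counts in DSS-treated KO, 2 and 1 in DSS-treated WT, 2 and 9 counts in untreated KO, and 4 and 5 counts in untreated WT. Together the 32 genes took 0.712% and 0.731% of all counts in DSS-treated KO, 0.554% and 0.556% in DSS-treated WT, while untreated KO had 0.492% and 0.491%, and untreated WT 0.439% and 0.431%. The 4 groups did not overlap in this share, which was largest in DSS-treated KO. Per transcript length, in the deposited TPM, a measure scaled to length and depth, Calr stood at 685 ± 1.22 TPM in DSS-treated KO, 454 ± 3.23 TPM in DSS-treated WT, 422 ± 4.50 TPM in untreated KO and 329 ± 5.78 TPM in untreated WT (SD, n = 2 per group). P4hb stood at 559 ± 6.10 TPM in DSS-treated KO, 398 ± 7.38 TPM in DSS-treated WT, 308 ± 4.00 TPM in untreated KO and 272 ± 3.90 TPM in untreated WT. Pdia3, Hspa5, Sec61b and Hsp90b1 came next, all above 180 TPM as a mean of every group, so the most abundant of the 32 were folding genes and 1 channel subunit. The sensor genes Ern1, Atf6 and Eif2ak3 lay between 11.8 and 18.6 TPM in all group means, and Chac1 and Trib3 lay below 1 TPM in every group. All fold changes that follow come from counts, are log2 values with their SE, and are from edgeR's quasi-likelihood test with Benjamini-Hochberg adjusted p over all 14991 genes, with a threshold of 0.05. "Higher", "lower", "rose" and "fell" refer to genes past this threshold.

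**Figure D2:**
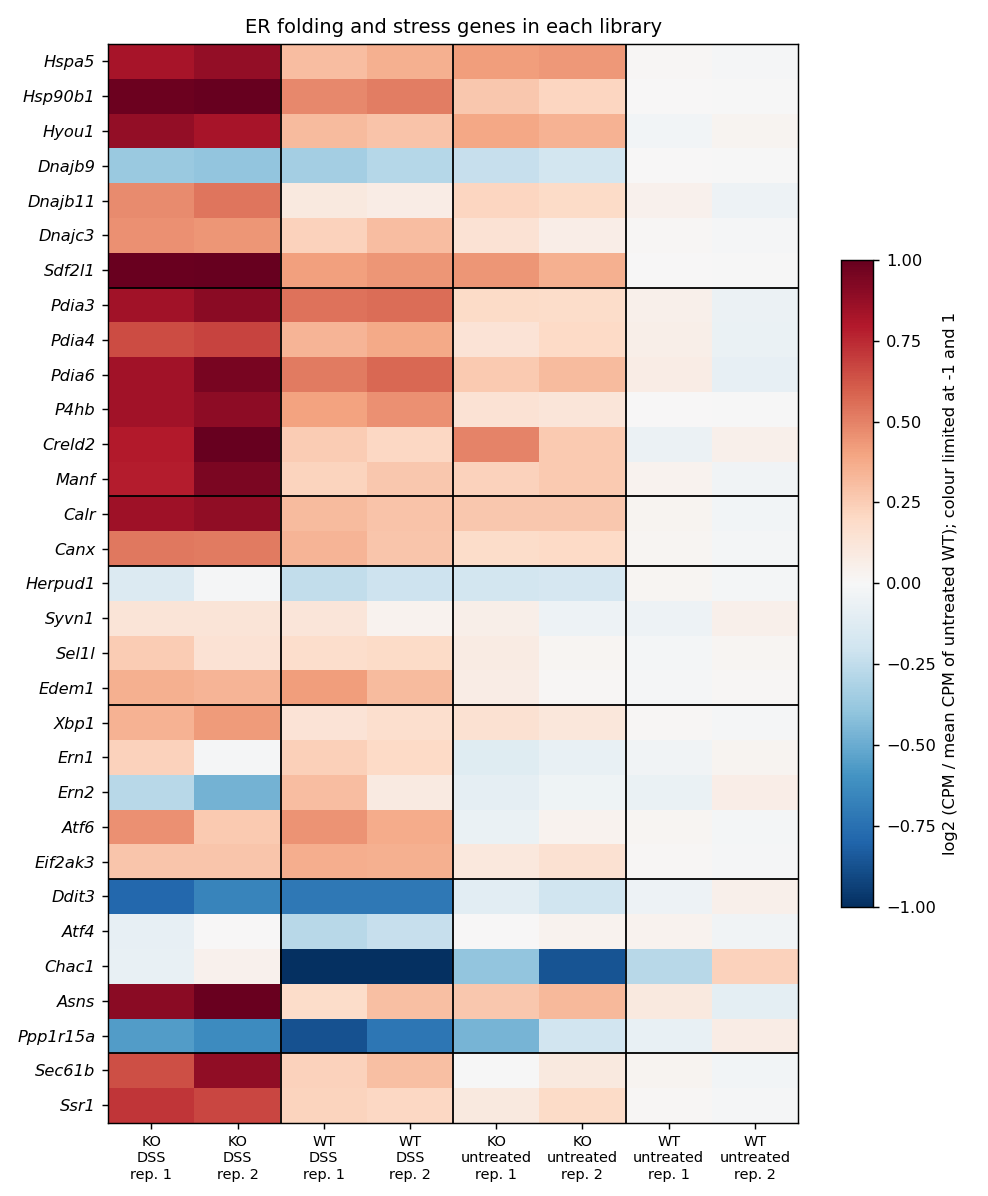
Level of the 31 tested genes (rows, grouped by role) in each library (columns), as log2 of CPM over the mean CPM of untreated WT. Red is higher and blue lower than untreated WT, with the colour limited at -1 and 1. The folding and import rows are reddest in the 2 DSS-treated KO libraries, while Dnajb9, Ddit3 and Ppp1r15a are blue in all DSS-treated libraries.

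In DSS-treated KO against DSS-treated WT, folding and import genes were higher in KO, 1 sensor gene was lower, and most of the other sensor and degradation genes passed no threshold. Of the 31 tested genes, 21 were higher and 1 was lower, and over all genes 21.3% were higher and 17.7% were lower (39.1% in either direction). The median log2 fold change was 0.30, against a median near 0 over all genes. By role, 6 of 7 genes of the HSP70 and HSP90 system, 6 of 6 disulfide isomerases and secreted ER proteins, 2 of 2 lectin chaperones and 2 of 2 import genes were higher. Among 5 tested genes of the integrated stress response 3 were higher, among 4 degradation genes 1 was higher, and among 5 sensors and transcription factors 1 was higher and 1 lower. Of these 22 calls, 18 were kept in all 15 alternative analyses, and those of Dnajc3, Canx, Herpud1 and Chac1 were not. Without DSS-treated KO replicate 1 the lower genes were 3, with Ern1 and Atf6 added to Ern2. The 32 genes are read more often than most: the median gene level was 111 CPM, against 18.9 CPM over genes with at least 10 counts in 2 libraries, and small differences pass the threshold more readily at high counts.

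In untreated KO against untreated WT, folding genes were again higher in KO. There 15 genes were higher and 3 lower, and over all genes 9.19% were higher and 6.22% lower (15.4% in either direction). The median log2 fold change was 0.13. By role, 5 of 7 genes of the HSP70 and HSP90 system, all 6 isomerases and secreted proteins, both lectin chaperones and 1 of 2 import genes were higher, with 1 of 5 integrated stress response genes. The 3 lower genes were Dnajb9, Herpud1 and Ppp1r15a, and none of the 5 sensors and transcription factors passed the threshold. All 15 genes were also among the 21 higher with DSS. That comparison shares no library with this one, but it shares the fit and its estimate of the spread. The overlap over all genes was not counted. The untreated counts depended on single libraries and on the method. The 15 higher genes became 5 when replicate 1 of untreated KO was left out, and 6 when replicate 2 of untreated KO or of untreated WT was left out, and the 3 lower genes became 0 or 1 without any 1 of the 4 untreated libraries. The 15 also became 9 with DESeq2 and 8 with effective-length offsets. Hspa5, Hsp90b1, Hyou1 and Calr kept their call in all 15 alternative analyses.

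DSS against untreated raised most of the 31 genes in both genotypes. In KO 23 rose and 3 fell, and over all genes 21.7% rose and 19.8% fell (41.6% in either direction). In WT 22 rose and 6 fell, and over all genes 18.9% rose and 18.3% fell (37.2% in either direction). The median log2 fold change was 0.37 in KO and 0.24 in WT. The same 21 genes rose in both genotypes, and Ddit3 and Dnajb9 fell in both. Of the 5 tested integrated stress response genes 1 fell in KO and 4 fell in WT. In KO 21 of 26 calls were kept in all 15 alternative analyses, and Dnajb9, Eif2ak3, Ern1, Ern2 and Sel1l lost theirs in some. In WT 20 of 28 were kept, and Asns, Chac1, Ern1, Ern2, Manf, Sec61b, Sel1l and Xbp1 lost theirs in some. Without untreated KO replicate 2 the 3 falls in KO became 1, that of Ddit3.

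The difference between the 2 DSS changes, DSS change in KO minus DSS change in WT, is the interaction. It was positive for 11 genes and negative for 1, and over all genes 10.8% were positive and 10.6% negative (21.4% in either direction). The median was 0.14. Positive here means that DSS raised the gene more in KO than in WT, or lowered it less. The 11 became 7 without DSS-treated WT replicate 1 or untreated KO replicate 1, 7 with DESeq2 and 6 with effective-length offsets. Calr, Ern2, Herpud1, Manf, P4hb, Sec61b and Ssr1 kept the call in all 14 alternative analyses of the interaction.

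**Figure D3:**
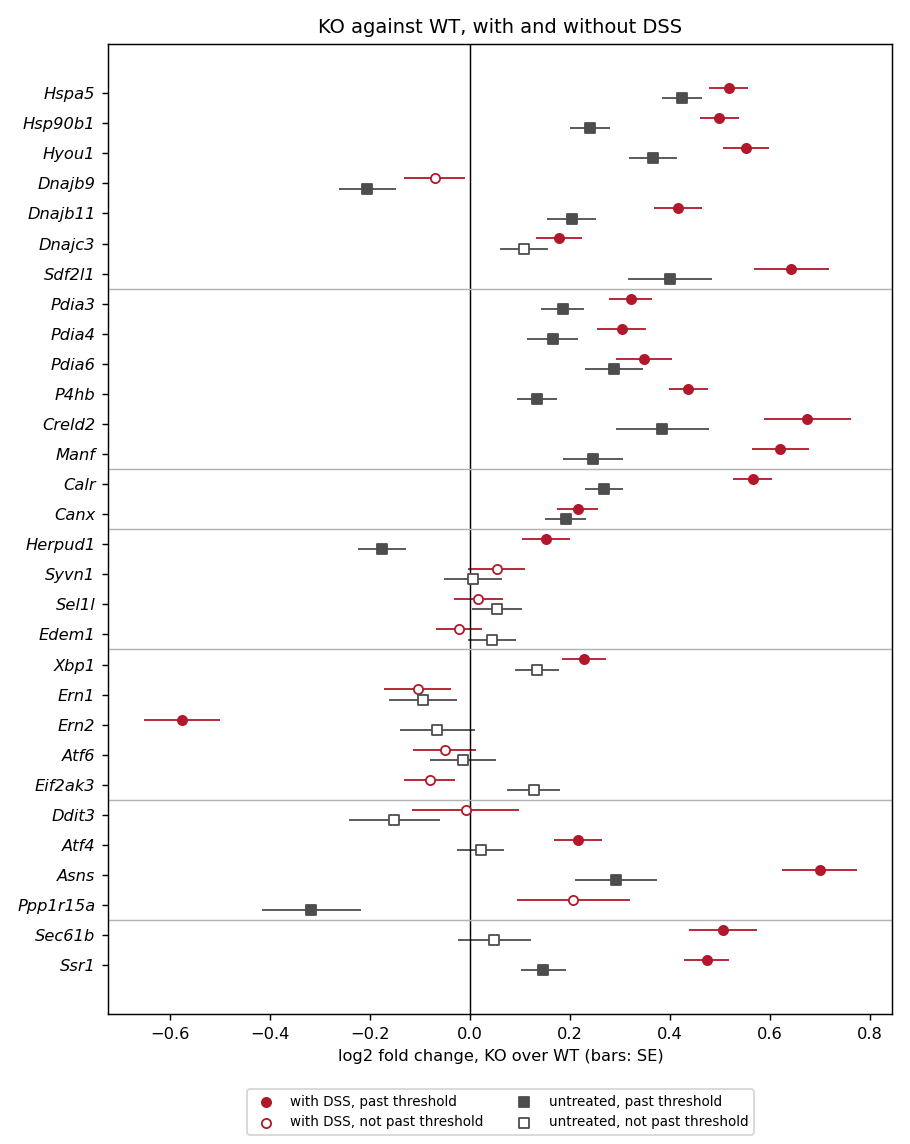
log2 fold change of KO over WT (horizontal axis, bars are SE) for 30 tested genes, with DSS (red circles) and untreated (grey squares). Filled symbols passed an adjusted p of 0.05. Chac1, whose SE is 0.51 with DSS, is left out. Nearly all folding genes lie to the right of 0, with the DSS value further right than the untreated value for most.

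The HSP70 and HSP90 system of the ER is built around BiP, the product of Hspa5 (chr2:34771970-34777547 in GENCODE M21, build mm10), which binds unfolded chains and holds the stress sensors inactive. Hspa5 stood at 581 and 603 CPM in DSS-treated KO, 407 and 420.2 CPM in DSS-treated WT, 438 and 442 CPM in untreated KO, and 331 and 326 CPM in untreated WT. KO lay above WT in both treatments and DSS above untreated in both genotypes, without overlap. Over all tested genes 34.4% lay above in this way in KO against WT with DSS, and 31.3% untreated. For DSS against untreated the shares were 34.6% in KO and 34.5% in WT. The genotype value of Hspa5, KO over WT, was 0.52 ± 0.04 (adjusted p = 1.61e-07) with DSS and 0.42 ± 0.04 (adjusted p = 7.63e-06) untreated. The DSS change was 0.43 ± 0.04 in KO and 0.33 ± 0.04 in WT, and their difference of 0.09 ± 0.06 did not pass the threshold (adjusted p = 0.257).

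Hsp90b1 (chr10:86690209-86705509) encodes GRP94, the HSP90 of the ER, which folds receptors and integrins. It stood at 728 and 747 CPM in DSS-treated KO, 516 and 527 CPM in DSS-treated WT, 444 and 428 CPM in untreated KO, and 371 and 368 CPM in untreated WT. Its KO over WT value was 0.50 ± 0.04 with DSS and 0.24 ± 0.04 untreated, and the interaction was 0.26 ± 0.06 (adjusted p = 0.00479). Hyou1, a large HSP70 relative that exchanges nucleotide on BiP, stood at 153 and 148 CPM in DSS-treated KO, 104 and 102 CPM in DSS-treated WT, 109 and 106 CPM in untreated KO, and 81.8 and 85.2 CPM in untreated WT. Untreated KO was thus at least as high in Hyou1 as DSS-treated WT. Its log2 ratio of KO to WT was 0.55 ± 0.05 with DSS and 0.37 ± 0.05 untreated, and the interaction of 0.19 ± 0.07 missed the threshold (adjusted p = 0.0581).

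The cochaperones of BiP went different ways. Sdf2l1, a partner that keeps BiP engaged with its clients, stood at 30.4 and 34.0 CPM in DSS-treated KO, 20.4 and 20.8 CPM in DSS-treated WT, 20.9 and 19.6 CPM in untreated KO, and 15.4 and 15.3 CPM in untreated WT, and KO over WT was 0.64 ± 0.08 with DSS and 0.40 ± 0.08 untreated. Dnajb11, a J protein that hands unfolded chains to BiP, stood at 133 and 139 CPM in DSS-treated KO, 102 and 101 CPM in DSS-treated WT, 111 and 109.6 CPM in untreated KO, and 99.0 and 92.7 CPM in untreated WT. It was higher in KO in both treatments (log2 0.42 ± 0.05 and 0.20 ± 0.05) and rose with DSS in KO (0.30 ± 0.05), while its value in WT was 0.09 ± 0.05 (adjusted p = 0.183), and the interaction was 0.21 ± 0.07 (adjusted p = 0.0388). The interaction call of Dnajb11 was lost in 9 of 14 alternative analyses and its untreated genotype call in 5 of 15. Dnajc3, a J protein known also as an inhibitor of PERK, stood at 151 and 149 CPM in DSS-treated KO, 129 and 136 CPM in DSS-treated WT, 122 and 115 CPM in untreated KO, and 111 and 109 CPM in untreated WT. It was higher in KO with DSS (0.18 ± 0.05, and 0.14 with the call lost without DSS-treated WT replicate 1), not past the threshold untreated (0.11 ± 0.05, adjusted p = 0.156), and rose with DSS in both genotypes.

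Dnajb9 was the exception among these genes. It encodes ERdj4, a J protein that brings BiP to IRE1 and is an established target of XBP1. Dnajb9 stood at 30.1 and 29.5 CPM in DSS-treated KO, 30.6 and 31.97 CPM in DSS-treated WT, 33.2 and 34.2 CPM in untreated KO, and 38.9 and 38.8 CPM in untreated WT. The highest pair was in untreated WT. It fell with DSS by 0.18 in KO (adjusted p = 0.0306) and by 0.31 in WT (adjusted p = 0.000808) on the log2 scale, and was lower in untreated KO than in untreated WT (-0.21 ± 0.06, adjusted p = 0.0271). KO over WT with DSS was -0.07 ± 0.06 (adjusted p = 0.383).

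**Figure D4:**
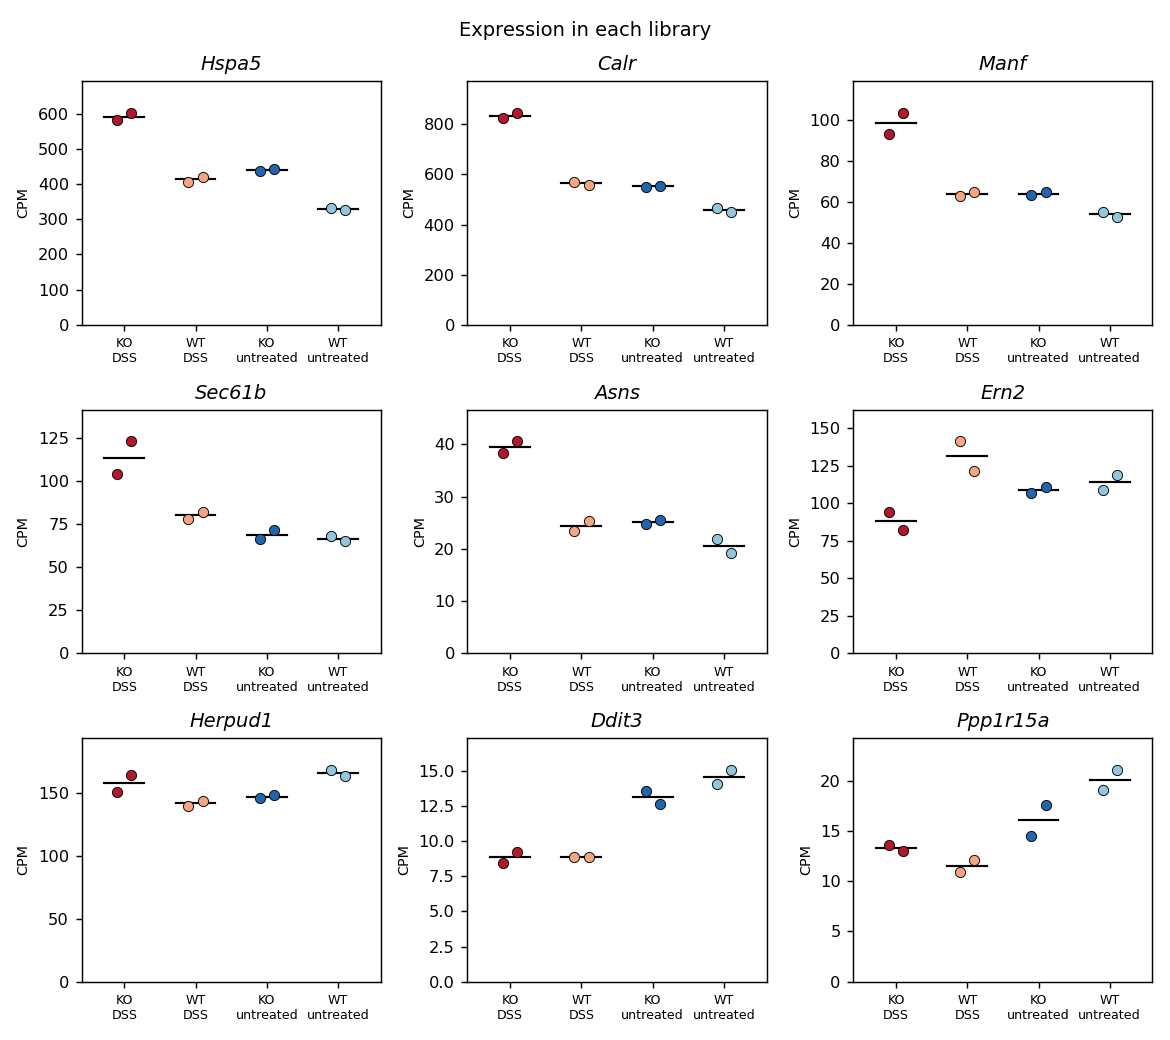
CPM of 9 genes in each library (points) with the group mean (line), for DSS-treated KO, DSS-treated WT, untreated KO and untreated WT from left to right. Hspa5, Calr, Manf, Sec61b and Asns are highest in DSS-treated KO, Ern2 is lowest there, and Ddit3 and Ppp1r15a are highest in untreated WT.

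The disulfide isomerases form and reshuffle the bonds between cysteines of secreted proteins, and all 4 were higher in KO in both treatments. The untreated call was lost in 9 of 15 alternative analyses for Pdia4, 8 for P4hb, 3 for Pdia3 and 2 for Pdia6. P4hb (chr11:120560298-120573253), which also serves collagen hydroxylation, stood at 1041 and 1085 CPM in DSS-treated KO, 772 and 799 CPM in DSS-treated WT, 645 and 634 CPM in untreated KO, and 585 and 580.4 CPM in untreated WT. Between the genotypes, KO over WT was 0.44 ± 0.04 with DSS and 0.13 ± 0.04 untreated, and the interaction was 0.30 ± 0.06 (adjusted p = 0.00154). Pdia3, which works with the lectin chaperones, stood at 857 and 892 CPM in DSS-treated KO, 695 and 705 CPM in DSS-treated WT, 546 and 542 CPM in untreated KO, and 496 and 460.3 CPM in untreated WT. Pdia4 stood at 152 and 154 CPM in DSS-treated KO, 122 and 125 CPM in DSS-treated WT, 106 and 111 CPM in untreated KO, and 101 and 92.4 CPM in untreated WT, and Pdia6 stood at 218 and 236 CPM in DSS-treated KO, 175 and 182 CPM in DSS-treated WT, 147 and 152 CPM in untreated KO, and 129 and 116 CPM in untreated WT. Each of these isomerases was lowest in untreated WT and highest in DSS-treated KO, and the groups did not overlap. In a comparison of KO with WT or of DSS with untreated, 31.3% to 34.6% of all tested genes lay fully above. KO over WT with DSS was 0.32 ± 0.04 for Pdia3, 0.30 ± 0.05 for Pdia4 and 0.35 ± 0.06 for Pdia6. Their DSS changes were 0.69 ± 0.04, 0.50 ± 0.05 and 0.61 ± 0.06 in KO and 0.55 ± 0.04, 0.36 ± 0.05 and 0.55 ± 0.06 in WT, in the same order, and no interaction passed the threshold.

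Manf and Creld2 encode small proteins of the ER that are released under stress. Manf stood at 93.4 and 104 CPM in DSS-treated KO, 63.2 and 65.1 CPM in DSS-treated WT, 63.4 and 65.0 CPM in untreated KO, and 55.3 and 52.9 CPM in untreated WT. DSS-treated KO stood apart from the other 3 groups in Manf, and untreated KO and DSS-treated WT overlapped. Its genotype difference (KO over WT) was 0.62 ± 0.06 (adjusted p = 9.9e-07) with DSS and 0.25 ± 0.06 (adjusted p = 0.0127) untreated, and the interaction was 0.37 ± 0.08 (adjusted p = 0.00569). Creld2 stood at 41.9 and 48.8 CPM in DSS-treated KO, 28.8 and 27.97 CPM in DSS-treated WT, 34.2 and 29.0 CPM in untreated KO, and 23.3 and 25.1 CPM in untreated WT, with KO over WT of 0.68 ± 0.09 with DSS and 0.38 ± 0.09 untreated. Its DSS change passed the threshold in KO (0.52 ± 0.09) and not in WT (0.23 ± 0.09, adjusted p = 0.0644), and the interaction of 0.29 ± 0.13 did not pass either (adjusted p = 0.122).

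The lectin chaperones hold glycoproteins through their sugars until folding is complete. Calr (chr8:84841850-84846934), encoding soluble calreticulin, stood at 824 and 846 CPM in DSS-treated KO, 569.8 and 558 CPM in DSS-treated WT, 552 and 552 CPM in untreated KO, and 466 and 451 CPM in untreated WT. Its value in DSS-treated KO was above every other library. The log2 value of KO over WT was 0.57 ± 0.04 (adjusted p = 4.99e-08) with DSS and 0.27 ± 0.04 (adjusted p = 0.000308) untreated, and DSS raised Calr by 0.60 ± 0.04 in KO and 0.30 ± 0.04 in WT, with an interaction of 0.30 ± 0.05 (adjusted p = 0.00162). Its membrane-bound relative Canx stood at 366 and 365 CPM in DSS-treated KO, 321 and 308 CPM in DSS-treated WT, 289 and 292 CPM in untreated KO, and 258 and 250.9 CPM in untreated WT. KO over WT for Canx was 0.21 ± 0.04 with DSS and 0.19 ± 0.04 untreated, and the DSS changes of 0.33 ± 0.04 in KO and 0.31 ± 0.04 in WT gave an interaction of 0.02 ± 0.06 (adjusted p = 0.817). With effective-length offsets the genotype value with DSS was 0.10 and lost its call.

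Both import genes were higher in DSS-treated KO than in DSS-treated WT. Sec61b (chr4:47474658-47483242), a subunit of the channel, stood at 104 and 123 CPM in DSS-treated KO, 78.0 and 81.9 CPM in DSS-treated WT, 66.4 and 71.3 CPM in untreated KO, and 67.8 and 65.4 CPM in untreated WT. The genotypes were apart with DSS (0.51 ± 0.07, adjusted p = 4.44e-05) and overlapped untreated (0.05 ± 0.07, adjusted p = 0.72), and the interaction was 0.46 ± 0.10 (adjusted p = 0.00549). Ssr1, a subunit of the translocon-associated complex, stood at 214 and 208 CPM in DSS-treated KO, 153 and 151 CPM in DSS-treated WT, 140.2 and 149 CPM in untreated KO, and 132 and 129 CPM in untreated WT. With DSS its KO over WT value was 0.47 ± 0.04 (adjusted p = 1.33e-06), untreated it was 0.15 ± 0.05 (adjusted p = 0.0443), and the interaction was 0.33 ± 0.06 (adjusted p = 0.00256). The untreated call of Ssr1 was lost in 11 of 15 alternative analyses.

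**Figure D5:**
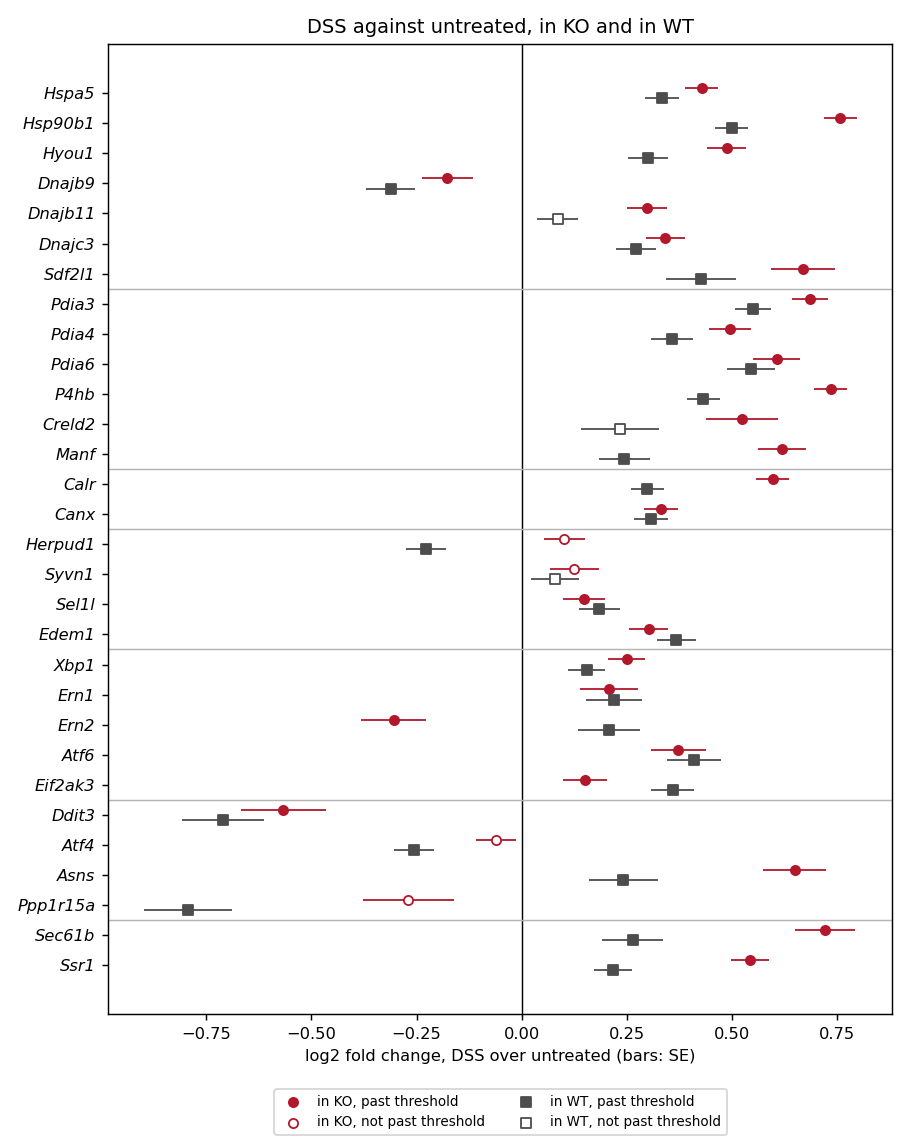
log2 fold change of DSS over untreated (horizontal axis, bars are SE) for 30 tested genes, in KO (red circles) and in WT (grey squares). Filled symbols passed an adjusted p of 0.05, and Chac1 is left out. Folding, import and sensor genes lie to the right of 0 in both genotypes except Dnajb9 and, in KO, Ern2, and Ddit3, Atf4 and Ppp1r15a lie to the left.

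Of the 4 degradation genes, Herpud1 was called between the genotypes, Edem1 and Sel1l rose with DSS, and Syvn1 was not called. Herpud1 (chr8:94386438-94395377), an adaptor of the degradation complex in the ER membrane, stood at 151 and 164 CPM in DSS-treated KO, 139.8 and 144 CPM in DSS-treated WT, 146 and 148 CPM in untreated KO, and 168 and 164 CPM in untreated WT. DSS-treated KO lay above DSS-treated WT and untreated KO below untreated WT, and the libraries of DSS-treated KO and untreated WT overlapped. KO over WT was therefore of opposite sign in the 2 treatments, 0.15 ± 0.05 (adjusted p = 0.0233) with DSS and -0.18 ± 0.05 (adjusted p = 0.024) untreated, and the interaction was 0.33 ± 0.07 (adjusted p = 0.00401). The DSS change was 0.10 ± 0.05 (adjusted p = 0.115) in KO and -0.23 ± 0.05 (adjusted p = 0.00215) in WT, where it passed the threshold. Its call with DSS was lost in 5 of 15 alternative analyses and its untreated call in 6 of 15.

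Edem1, a lectin that passes misfolded glycoproteins on to degradation, stood at 159 and 158 CPM in DSS-treated KO, 166 and 156 CPM in DSS-treated WT, 131 and 126 CPM in untreated KO, and 124 and 126 CPM in untreated WT. It rose with DSS by 0.30 ± 0.05 in KO and 0.37 ± 0.05 in WT, and no genotype difference passed the threshold. Sel1l, the scaffold of the ubiquitin ligase complex, stood at 128 and 119 CPM in DSS-treated KO, 121 and 123 CPM in DSS-treated WT, 114 and 109 CPM in untreated KO, and 106 and 109 CPM in untreated WT, and rose by 0.15 ± 0.05 in KO and 0.18 ± 0.05 in WT. Syvn1, the ubiquitin ligase itself, passed no threshold in any of the 5 comparisons and lay between 57.1 and 64.9 CPM in the 8 libraries, although its promoter holds an ERSE.

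Among the 5 sensor and transcription factor genes, 4 rose with DSS in KO and 5 in WT, and 3 passed no threshold between the genotypes. Over all genes the shares that rose were 21.7% in KO and 18.9% in WT. In KO the rise of Eif2ak3 lost its call in 8 of 15 alternative analyses and that of Ern1 in 5. In WT the call was lost in 6 of 15 for Ern2, 5 for Ern1 and 4 for Xbp1. Atf6 stood at 91.9 and 80.3 CPM in DSS-treated KO, 91.8 and 86.7 CPM in DSS-treated WT, 64.2 and 68.7 CPM in untreated KO, and 68.1 and 66.2 CPM in untreated WT, with DSS changes of 0.37 ± 0.07 (adjusted p = 0.000343) in KO and 0.41 ± 0.06 (adjusted p = 0.000197) in WT. Eif2ak3, which encodes PERK, stood at 51.8 and 52.0 CPM in DSS-treated KO, 55.0 and 54.8 CPM in DSS-treated WT, 45.9 and 47.5 CPM in untreated KO, and 43.1 and 42.5 CPM in untreated WT, with DSS changes of 0.15 ± 0.05 in KO and 0.36 ± 0.05 in WT and an interaction of -0.21 ± 0.07 (adjusted p = 0.0564). Ern1, the widely expressed IRE1 gene, lay between 58.8 and 75.4 CPM, and its DSS changes were 0.21 ± 0.07 (adjusted p = 0.025) in KO and 0.22 ± 0.07 (adjusted p = 0.0188) in WT. KO over WT with DSS was -0.05 ± 0.06 for Atf6, -0.08 ± 0.05 for Eif2ak3 and -0.11 ± 0.07 for Ern1, none past the threshold.

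Xbp1 stood at 203 and 214 CPM in DSS-treated KO, 176 and 179.6 CPM in DSS-treated WT, 178 and 173 CPM in untreated KO, and 161 and 158 CPM in untreated WT. KO lay above WT in both treatments without overlap, at 0.23 ± 0.04 (adjusted p = 0.000833) with DSS and 0.13 ± 0.04 (adjusted p = 0.056) untreated. The untreated value did not pass the threshold. Over all tested genes 34.4% lay above without overlap with DSS, and 31.3% untreated. Gene-level counts add up the spliced and unspliced mRNA, so they do not show IRE1 activity.

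Ern2 (chr7:122169893-122186207) was the only gene of the 31 that was lower by this fit in DSS-treated KO than in DSS-treated WT. It encodes IRE1β, the IRE1 form of gut epithelium, found mainly in goblet cells. Ern2 stood at 94.1 and 82.1 CPM in DSS-treated KO, 141 and 122 CPM in DSS-treated WT, 107 and 111 CPM in untreated KO, and 109 and 119 CPM in untreated WT. The 2 DSS-treated KO libraries were the lowest of the 8 and the 2 DSS-treated WT libraries the highest. The genotype value, KO over WT, was -0.58 ± 0.08 (adjusted p = 3.25e-05) with DSS and -0.07 ± 0.08 (adjusted p = 0.624) untreated. DSS lowered Ern2 in KO (-0.30 ± 0.08, adjusted p = 0.0055) and raised it in WT (0.21 ± 0.07, adjusted p = 0.0394), with an interaction of -0.51 ± 0.11 (adjusted p = 0.00391). The rise in WT lost its call in 6 of 15 alternative analyses, DESeq2 and effective-length offsets among them. Its value was 0.09 without DSS-treated WT replicate 1 and 0.14 without untreated WT replicate 1. The genotype value with DSS kept its call in all 15 alternative analyses.

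Goblet cell markers were measured beside Ern2. Of 12 such markers 7 were lower and 0 higher in DSS-treated KO against DSS-treated WT, none of them at 0. With DSS 8 fell and 2 rose in KO, where Ern2 fell, and 5 fell and 5 rose in WT, where Ern2 rose. Untreated, 3 were higher and 4 lower in KO than in WT. Their summed level was 6846 and 6762 CPM in DSS-treated KO, 9047 and 8692 CPM in DSS-treated WT, 16077 and 16112 CPM in untreated KO, and 16595 and 16949 CPM in untreated WT. The mucin gene Muc2 stood at 2016 and 1806 CPM in DSS-treated KO and 3219 and 2965 CPM in DSS-treated WT, a log2 fold change of -0.69 ± 0.05. These and all later marker counts can be read against the shares of all genes. In KO against WT 21.3% were higher and 17.7% lower with DSS, and 9.19% and 6.22% untreated. With DSS 21.7% rose and 19.8% fell in KO, and 18.9% rose and 18.3% fell in WT. In bulk RNA fewer cells of a type and less RNA per cell cannot be told apart, and the part of goblet cells in the Ern2 values was not tested.

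The integrated stress response genes did not move together. Asns (chr6:7675169-7693254), the asparagine synthetase gene and an established ATF4 target, stood at 38.3 and 40.6 CPM in DSS-treated KO, 23.3 and 25.3 CPM in DSS-treated WT, 24.7 and 25.6 CPM in untreated KO, and 21.9 and 19.1 CPM in untreated WT. DSS-treated KO was apart from all other groups. Its log2 ratio of KO to WT was 0.70 ± 0.07 (adjusted p = 4.47e-06) with DSS and 0.29 ± 0.08 (adjusted p = 0.0263) untreated, and the interaction was 0.41 ± 0.11 (adjusted p = 0.0181). Atf4 itself stood at 156 and 166 CPM in DSS-treated KO, 136 and 141 CPM in DSS-treated WT, 166 and 169.8 CPM in untreated KO, and 169 and 161 CPM in untreated WT. It was higher in KO with DSS (0.22 ± 0.05, adjusted p = 0.00245), at 0.02 ± 0.05 untreated (adjusted p = 0.815), and its DSS change was -0.06 ± 0.05 (adjusted p = 0.331) in KO and -0.26 ± 0.05 (adjusted p = 0.000789) in WT, past the threshold in WT. ATF4 is governed largely at translation, which RNA levels do not show.

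Chac1, which degrades glutathione and is raised by ATF4, had 11 and 12 counts in DSS-treated KO, 3 and 5 in DSS-treated WT, 8 and 6 counts in untreated KO, and 11 and 14 counts in untreated WT. At these counts KO over WT was 1.44 ± 0.51 (adjusted p = 0.038) with DSS and the interaction 2.04 ± 0.68 (adjusted p = 0.0478). The first call was lost in 11 of 15 alternative analyses, and the second in 11 of the 13 that gave it an adjusted p.

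The stress effector Ddit3 was lower after DSS in both genotypes and Ppp1r15a in WT. Ddit3 (chr10:127290774-127296288), encoding CHOP, stood at 8.46 and 9.21 CPM in DSS-treated KO, 8.89 and 8.89 CPM in DSS-treated WT, 13.5 and 12.7 CPM in untreated KO, and 14.1 and 15.1 CPM in untreated WT. It fell by 0.57 in KO (adjusted p = 0.000397) and by 0.71 in WT (adjusted p = 6.55e-05) on the log2 scale, and the genotypes did not differ past the threshold in either treatment. Ppp1r15a, encoding GADD34, which lifts the block on translation, stood at 13.6 and 13.0 CPM in DSS-treated KO, 10.9 and 12.1 CPM in DSS-treated WT, 14.5 and 17.6 CPM in untreated KO, and 19.0 and 21.1 CPM in untreated WT. Its DSS change was -0.27 ± 0.11 (adjusted p = 0.0583) in KO and -0.79 ± 0.10 (adjusted p = 4.53e-05) in WT, past the threshold in WT. Between the genotypes, KO over WT was 0.21 ± 0.11 (adjusted p = 0.166) with DSS and -0.32 ± 0.10 (adjusted p = 0.0438) untreated, and the interaction was 0.52 ± 0.15 (adjusted p = 0.0235).

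Genes that respond to handling of cells, immediate-early genes and the heat shock genes Hspa1a and Hspa1b, were also mostly lower after DSS. Of 15 such genes 8 fell and 2 rose with DSS in KO, 10 fell and 0 rose in WT, and in untreated KO against untreated WT 9 were lower and 1 higher. With DSS in WT, Hspa1a (0.29 ± 0.15, adjusted p = 0.147) and Hspa1b (0.03 ± 0.08, adjusted p = 0.835) did not pass the threshold. Their summed level was 1127 and 1172 CPM in DSS-treated KO, 1137 and 1185 CPM in DSS-treated WT, 1810.3 and 1810.5 CPM in untreated KO, and 2051 and 2027 CPM in untreated WT, with Fos at 152 and 149 CPM in DSS-treated KO, 141 and 143 CPM in DSS-treated WT, 333 and 327 CPM in untreated KO, and 398 and 403 CPM in untreated WT. None of the 15 was at 0 in all libraries. Their part in the values of Ddit3, Ppp1r15a, Herpud1 and Dnajb9 was not tested.

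Markers of infiltrating cells also differed. Neutrophil markers summed to 342 and 368 CPM in DSS-treated KO, 56.4 and 59.6 CPM in DSS-treated WT, 86.0 and 86.7 CPM in untreated KO, and 99.9 and 97.5 CPM in untreated WT. Ly6g carried most of this sum in every group but DSS-treated KO, and without it the other 13 markers summed to 239 and 256 CPM in DSS-treated KO, 14.1 and 14.8 CPM in DSS-treated WT, 0.381 and 0.857 CPM in untreated KO, and 0.651 and 0.336 CPM in untreated WT. All 14 were higher in DSS-treated KO than in DSS-treated WT, and with DSS 14 rose in KO, and 11 rose and 1, Ly6g, fell in WT. S100a8, a defining neutrophil gene, stood at 52.9 and 58.3 CPM in DSS-treated KO and 1.68 and 2.00 CPM in DSS-treated WT and was at 0 in all untreated libraries. Macrophage markers summed to 174 and 184 CPM in DSS-treated KO, 90.7 and 88.7 CPM in DSS-treated WT, 59.8 and 62.3 CPM in untreated KO, and 64.7 and 67.3 CPM in untreated WT, with 7 of 15 higher and 0 lower in DSS-treated KO. The part of these cells in the rise of the folding genes was not tested. In plasma cells the ER is very large, and their defining marker Tnfrsf17 was at 0 in all 8 libraries, with Jchain at most 0.942 CPM and Mzb1 at most 0.173 CPM. The immunoglobulin gene Ighm stood at 2.82 and 3.03 CPM in DSS-treated KO and 3.43 and 3.77 CPM in DSS-treated WT. Untreated, it stood at 0.445 and 0.428 CPM in KO and 1.10 and 0.784 CPM in WT. With DSS in WT, Ighm (1.91 ± 0.24) and Igkc (1.33 ± 0.31) rose, and Igha did not pass the threshold (0.65 ± 0.26, adjusted p = 0.0655). The 14 markers of B and plasma cells summed to 233 and 238 CPM in DSS-treated KO, 259 and 268 CPM in DSS-treated WT, 306 and 303 CPM in untreated KO, and 258 and 258 CPM in untreated WT. Sdc1, which epithelial cells also express, carried most of it, and without it the other 13 summed to 16.9 and 18.5 CPM in DSS-treated KO, 17.5 and 19.0 CPM in DSS-treated WT, 6.16 and 6.18 CPM in untreated KO, and 7.11 and 7.68 CPM in untreated WT. Of 10 tested, 1 was higher and 3 lower in DSS-treated KO against DSS-treated WT, and with DSS 5 rose and 1 fell in KO and 7 rose and 0 fell in WT. T and NK cell markers summed to at most 10.5 CPM in any library, with 0 of 5 called in DSS-treated KO against DSS-treated WT, and 3 that rose with DSS in KO and 0 in WT. Stromal markers summed to 18.1 and 17.4 CPM in DSS-treated KO, 13.7 and 14.8 CPM in DSS-treated WT, 18.6 and 19.2 CPM in untreated KO, and 19.7 and 17.4 CPM in untreated WT, and with DSS, KO exceeded WT for 4 of 6 tested and lay below it for 1. The log2 fold changes were 1.33 ± 0.23 for Col3a1, 0.60 ± 0.17 for Dcn and -0.49 ± 0.15 for Vwf. Pecam1 did not pass the threshold (-0.57 ± 0.25, adjusted p = 0.0793). Untreated, KO over WT was 0.89 ± 0.26 for Col3a1, 0.60 ± 0.14 for Dcn, -0.47 ± 0.14 for Vwf and -0.77 ± 0.21 for Pecam1. Ly6g, Sdc1, Ighm, Igkc, Igha, Col3a1, Dcn, Vwf and Pecam1 were singled out after their values were seen.

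Colonocyte markers, of the mature absorptive cells, summed to 9805 and 9749.8 CPM in DSS-treated KO, 11168 and 11143 CPM in DSS-treated WT, 14492 and 14497 CPM in untreated KO, and 14142 and 13951 CPM in untreated WT. With DSS, KO exceeded WT for 3 of the 12 and lay below it for 7, and untreated for 5 and 5. With DSS 1 rose and 9 fell in KO, and 3 rose and 9 fell in WT. The part of plasma, stromal and colonocyte cells in the values of the folding genes was not tested.

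Genes with an ERSE were set beside those without, with no test of the difference. The 2 sets differ in role. All ERSE genes but Syvn1 were folding genes, and the others held all tested integrated stress response genes. In folding genes without an ERSE, KO over WT with DSS was 0.42 for Dnajb11, 0.64 for Sdf2l1 and 0.32 for Pdia3. It was 0.30 for Pdia4, 0.44 for P4hb and -0.07 for Dnajb9. Role and element cannot be told apart here. Of the 8 ERSE genes, 7 were higher in DSS-treated KO than in DSS-treated WT (median 0.42), and over all genes the share was 21.3%. In untreated KO against untreated WT 6 of the 8 were higher (median 0.25), against 9.19% over all genes. With DSS 7 rose in KO (median 0.48) and 6 in WT (median 0.30), and 0 fell in either, where 21.7% and 18.9% of all genes rose. Of the 19 tested genes with a promoter but no ERSE, DSS-treated KO had 12 higher and 0 lower than DSS-treated WT (median 0.23), and 7 were higher and 3 lower in untreated KO (median 0.05). With DSS 13 of the 19 rose and 2 fell in KO (median 0.30), and 12 rose and 6 fell in WT (median 0.22). The interaction was positive for 2 of the 8 ERSE genes (median 0.08) and for 8 of the 19 others (median 0.19), so here the genes without an ERSE had the larger median, and 10.8% of all genes were positive. Herpud1 and Dnajb11, the 2 genes with an ERSE-II, differed from each other in sign untreated, as given above.

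Other genes of the same pathways were summed up by role, and 126 of 127 were tested. Their counts can be read against the shares of all genes, which for KO over WT were 21.3% up and 17.7% down with DSS, and 9.19% up and 6.22% down untreated. In DSS-treated KO against DSS-treated WT 58 were higher and 16 lower, with a median of 0.15. In untreated KO against untreated WT 25 were higher and 8 lower, with a median of 0.05. With DSS 74 rose and 10 fell in KO, 55 rose and 9 fell in WT, and the interaction was positive for 32 and negative for 6. The shares of all genes were 21.7% up and 19.8% down with DSS in KO, 18.9% and 18.3% in WT, and 10.8% and 10.6% for the interaction.

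Of 22 genes of ER import and N-glycosylation, 17 were higher in DSS-treated KO than in DSS-treated WT and 0 were lower, like the import genes Sec61b and Ssr1. Sec61g, another channel subunit, stood at 62.7 and 65.6 CPM in DSS-treated KO, 39.7 and 40.7 CPM in DSS-treated WT, 40.6 and 43.5 CPM in untreated KO, and 39.9 and 38.0 CPM in untreated WT, and KO over WT was 0.67 ± 0.06 (adjusted p = 4.52e-07) with DSS, with an interaction of 0.56 ± 0.08 (adjusted p = 0.000292). Ssr2 (0.49 ± 0.05), of the same complex as Ssr1, and Ddost (0.43 ± 0.05), a subunit of the oligosaccharyltransferase, followed. In untreated KO, 3 of the 22 were higher and 0 lower. With DSS 20 of them rose in KO and 16 in WT, led in WT by the oligosaccharyltransferase genes Rpn2 (0.47 ± 0.04), Ostc (0.61 ± 0.05) and Rpn1 (0.45 ± 0.04).

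Among 24 further folding genes DSS-treated KO had 9 higher and 1 lower than DSS-treated WT. Ero1l, the oxidase that recharges the disulfide isomerases, stood at 95.4 and 95.1 CPM in DSS-treated KO, 66.0 and 69.5 CPM in DSS-treated WT, 51.4 and 47.4 CPM in untreated KO, and 50.4 and 46.2 CPM in untreated WT, with KO over WT of 0.49 ± 0.06 (adjusted p = 7.56e-06) with DSS. Prdx4, an ER peroxidase (0.74 ± 0.09), and Selenof (0.38 ± 0.05) followed. In untreated KO, 5 were higher and 0 lower, with Agr2, a goblet cell isomerase needed for mucin, at 0.26 ± 0.05. With DSS 19 rose in KO and 14 in WT, and 0 fell. The isomerases Dnajc10 (0.98 ± 0.04 in WT) and Txndc5 (0.79 ± 0.04) were among the leading ones, as was Agr2 (0.95 ± 0.05).

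Of 21 further degradation genes DSS-treated KO had 5 higher and 3 lower than DSS-treated WT, near the shares of all genes, and 1 was higher and 3 were lower untreated. Vcp, the ATPase that pulls proteins out of the ER membrane, stood at 422 and 433 CPM in DSS-treated KO, 329 and 328 CPM in DSS-treated WT, 354 and 349 CPM in untreated KO, and 319 and 319 CPM in untreated WT, with KO over WT of 0.38 ± 0.04 (adjusted p = 2.64e-06) with DSS and 0.14 ± 0.04 (adjusted p = 0.0236) untreated. With DSS 11 rose in KO and 6 in WT. Of 21 further sensing genes DSS-treated KO had 7 higher and 2 lower than DSS-treated WT, led by Bak1 (0.57 ± 0.05), a pro-apoptotic protein also found at the ER, and Eif2s1 (0.48 ± 0.06), which encodes eIF2α. In untreated KO, 3 were higher and 1 lower, with the eIF2α phosphatase subunit Ppp1r15b at 0.39 ± 0.04.

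Of 38 further genes of the integrated stress response DSS-treated KO had 20 higher and 10 lower than DSS-treated WT, and 13 were higher and 4 lower untreated. Psat1, of serine synthesis, stood at 22.6 and 22.1 CPM in DSS-treated KO, 7.51 and 7.42 CPM in DSS-treated WT, 12.01 and 9.24 CPM in untreated KO, and 5.16 and 5.55 CPM in untreated WT. Its genotype difference (KO over WT) was 1.58 ± 0.11 (adjusted p = 7.59e-08) with DSS and 0.99 ± 0.13 (adjusted p = 0.000173) untreated. Phgdh, the first enzyme of the same path, stood at 20.1 and 21.5 CPM in DSS-treated KO, 8.47 and 7.48 CPM in DSS-treated WT, 12.5 and 12.6 CPM in untreated KO, and 7.96 and 7.84 CPM in untreated WT, and Shmt2, the mitochondrial serine hydroxymethyltransferase, at 43.0 and 42.7 CPM in DSS-treated KO, 19.6 and 19.3 CPM in DSS-treated WT, 21.9 and 19.8 CPM in untreated KO, and 19.4 and 19.6 CPM in untreated WT. All libraries of DSS-treated KO lay above those of DSS-treated WT for these 3 genes, as for Asns and for 34.4% of all tested genes. KO over WT with DSS was 1.38 ± 0.09 for Phgdh and 1.14 ± 0.07 for Shmt2, and Shmt2 had an interaction of 1.04 ± 0.10 (adjusted p = 7.71e-06). Slc1a4 and Cth went the other way. Slc1a4 stood at 27.0 and 24.9 CPM in DSS-treated KO and 35.5 and 36.2 CPM in DSS-treated WT. Cth stood at 54.0 and 52.8 CPM in DSS-treated KO and 69.8 and 72.1 CPM in DSS-treated WT. Their interactions were -0.81 ± 0.09 (adjusted p = 3.32e-05) and -0.45 ± 0.07 (adjusted p = 0.000357). With DSS 14 rose and 9 fell in KO, and 13 rose and 8 fell in WT. In WT the cystine carrier gene Slc7a11 (1.59 ± 0.17) and Stc2 (0.73 ± 0.06) rose and the stress cytokine gene Gdf15 fell (-1.59 ± 0.16).

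Reads could not always be given to 1 gene. Counts were fractional in at least 1 library for 5 of the 32 genes (Hsp90b1, Dnajb9, Manf, Eif2ak3 and Sec61b), because the counter shares reads between similar places. Exons of 10 of the 32 genes overlap another gene in GENCODE M21, namely Hsp90b1, Dnajb9, Pdia3, Pdia4, Pdia6, Manf, Syvn1, Eif2ak3, Ddit3 and Ppp1r15a, and a strand setting is not given in the sources used here, so part of their reads may belong to the neighbour.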

How the data were processed

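The authors deposited RSEM tables of 8 libraries with an expected count per gene, in which reads that map to several places are shared, and TPM and FPKM values, which are corrected for effective length, per the file headers. Per the submitters' processing notes, the tools included RSEM 1.3.0, STAR 2.5.3a and DESeq2 1.18.1, and the build was mm10. Options, annotation and strand setting are not given in the sources used here. Depth was 15971642 to 20418466 expected counts per library.

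The deposited expected counts were rounded and fitted for all genes with edgeR 4.0.16 in R 4.3.3. The default filterByExpr rule left 14991 genes, scaling was by TMM, and 1 quasi-likelihood model of 4 group means was fitted to all 8 libraries (4 residual degrees of freedom, common biological coefficient of variation 3.49%). This shares 1 estimate of spread between groups whose spread differed. Chi-square per degree of freedom against counting error was 5.09 in DSS-treated KO, 1.84 in DSS-treated WT, 1.30 in untreated KO and 2.21 in untreated WT. With the 2 compared groups alone, KO against WT gave 4924 calls over all genes with DSS and 3403 untreated. The shared fit gave 5855 and 2310. Two-sided p-values were adjusted by the Benjamini-Hochberg method over all genes within each of 5 comparisons, with a threshold of 0.05. The SE is the absolute log2 fold change over the square root of the F statistic. CPM are counts scaled to the library's depth with TMM factors. The deposited TPM were used only to compare levels between genes, and FPKM were not used. The procedure was run on simulated counts with known changes. Their spread was set alike for every gene and group, so the run does not cover groups of unequal spread.

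The genes, the roles, the lists of other genes and the promoters shown were chosen with earlier results of these data known. Values in every library were given for genes past the threshold in a comparison of genotypes or in the interaction, or with one of the 2 smallest p-values of their role in a comparison of DSS with untreated. Of each other pathway list, up to 3 genes per comparison with the smallest p were named, and not all of them are printed. The alternatives were RLE scaling, the Wald test of DESeq2 1.42.0, no filter, effective-length offsets, a replicate block, unrounded counts, the 2 compared groups alone, and each library left out. Positions are those of GENCODE M21 (mm10). Promoters came from RefSeq (GRCm38.p6).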

Additional observations from a re-analysis of the deposited data

Results flagged for a closer look

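For 12 of the 31 tested genes the DSS change differed between the genotypes by the interaction test of edgeR, with values as DSS change in KO minus DSS change in WT on the log2 scale. Over all genes this share was 21.4%. Among folding genes these were P4hb (0.30), Calr (0.30), Hsp90b1 (0.26), Manf (0.37) and Dnajb11 (0.21). The import genes Sec61b (0.46) and Ssr1 (0.33), the degradation gene Herpud1 (0.33), and the integrated stress response genes Asns (0.41), Ppp1r15a (0.52) and Chac1 (2.04) were also positive. Ern2 was negative (-0.51). For the 5 folding genes, the 2 import genes and Asns, the fitted DSS change was positive in both genotypes and larger in KO, although for Dnajb11 the change in WT did not pass the threshold. For Herpud1 and Chac1 it was positive in KO, where it did not pass the threshold, and negative in WT, where it did. For Ern2 it was negative in KO and positive in WT, past the threshold in both. For Ppp1r15a it was negative in both and smaller in size in KO. The calls of Asns, Chac1, Dnajb11, Hsp90b1 and Ppp1r15a were lost in at least 1 alternative analysis, and the other 7 were kept in all 14. The value for Chac1 rests on 3 to 14 counts per library.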

How the results depend on the processing

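Over the 31 tested genes and 5 comparisons there were 106 calls. In 1576 alternative values of these calls 1388 kept the call, 188 lost it and 0 changed sign. Genes that were not called gave 714 alternative values, of which 31 changed sign, 21 passed the threshold, and 0 did both. The DESeq2 Wald test called 9 genes higher and 0 lower in untreated KO against untreated WT, where edgeR called 15 and 3, and 7 with a positive interaction, where edgeR called 11. Effective-length offsets gave 8, 0 and 6 for the same counts. Over all genes DESeq2 called 3428 in DSS-treated KO against DSS-treated WT (edgeR 5855), 1109 in untreated KO against untreated WT (2310), 3865 for DSS in KO (6231), 3020 for DSS in WT (5573) and 1486 for the interaction (3208). With effective-length offsets the untreated count was 1290 and the interaction count 1794. The cause was not tested.

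With 1 library left out, the genes higher in DSS-treated KO were 18 to 20 and those lower 1 to 3, with 4093 to 6182 calls over all genes. In untreated KO they were 5 to 16 and 0 to 3, with 953 to 3174. With DSS in KO 20 to 23 rose and 1 to 3 fell, with 4603 to 6263, and in WT 16 to 23 rose and 5 to 6 fell, with 3659 to 6426. The interaction was positive for 7 to 14 and negative for 1, with 1891 to 4444. The lower 3 in DSS-treated KO came without DSS-treated KO replicate 1.

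Deviations of libraries with the same replicate number were weakly correlated over the tested genes (-0.124 to 0.133). The labels do not say whether the numbers pair libraries. These correlations cannot exclude it, because part of the deviations is counting error. With the replicate block 21 genes were still higher in DSS-treated KO. The block lost the calls of Ssr1 and Pdia4 in untreated KO and of Dnajb11 and Chac1 in the interaction, and added Ppp1r15a for DSS in KO.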
